A study of Mus musculus with 4 samples.

Results

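The 82 genes described here are the mouse genes whose symbols start with Rpl or Rps and a digit, of 31053 genes counted. Rows marked as processed pseudogenes and the ribosomal S6 kinases were left out. The set holds 73 core genes of the cytosolic ribosome, of which 43 encode proteins of the large subunit and 30 of the small subunit. It also holds 7 close paralogs (*Rpl22l1*, *Rps27l*, *Rpl36al*, *Rpl7l1*, *Rpl3l*, *Rpl10l* and *Rpl39l*) and *Rps27rt*, a retrogene copy of *Rps27*. *Rps19bp1* fits the naming rule but encodes a nucleolar protein that binds RPS19, not a ribosomal protein. It was kept and is named where it appears.

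The small subunit of the ribosome reads the messenger RNA, and the large subunit joins the amino acids. Core ribosomal proteins are needed in equal numbers, so their genes are usually expressed in balance in every cell type, while a few paralogs replace their parent in particular tissues. Many of their messages start with a C followed by a run of pyrimidines, the terminal oligopyrimidine (TOP) motif, through which mTOR signaling sets their translation. In the prostate, luminal cells secrete the proteins of the seminal fluid and basal cells line the duct beneath them.

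Droplet-based scRNA-seq (10x Genomics, 3′ end) was performed on EPCAM+ cells from prostates of P2-*Runx1*:RFP mice on an ICR (CD-1) background, all older than 8 weeks. RFP is driven by the proximal P2 promoter of *Runx1*, so RFP+ and RFP- cells differ in the activity of that promoter. All adult groups, the castrated ones included, carried the reporter. RFP+ and RFP- cells were sorted separately from each lobe, anterior (AP), dorsolateral (DLP) or ventral (VP), of intact mice in runs 1, 2 and 3, and of mice castrated for more than 4 weeks in run 2. Mice were pooled within a run, so the replicates are the 3 runs, each of which is also a library. The intact DLP RFP+ population exists in run 3 alone, because its barcode failed in the other runs. Intact VP RFP- basal cells were too few in run 1, so their means are over runs 2 and 3 only. Castrated lobes of run 1 were sorted together and were not used. Another library held EPCAM+ cells of urogenital sinus explants, isolated at E15.5 from ICR (CD-1) embryos and cultured with 10 µM dihydrotestosterone, at days 0, 1, 3 and 6. Each day is 1 pool, and so is each castrated population.

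The sequences below show how members of the family start, since they carry the feature by which these messages are usually recognized. Start sites and sequences are from RefSeq on GRCm38.p6, which matched 63 of the members. Each line has 10 bases before and 20 bases from the start site, and capitals mark the pyrimidine run.
Rps27 (chr3:90213629-90213658, minus strand): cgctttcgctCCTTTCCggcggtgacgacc
Rps6 (chr4:86857348-86857377, minus strand): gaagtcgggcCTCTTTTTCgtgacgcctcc
Rps27rt (chr9:114982720-114982749, minus strand): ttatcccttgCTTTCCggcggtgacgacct
Rps27l (chr9:66946076-66946105, plus strand): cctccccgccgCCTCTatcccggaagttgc
Rpl22l1 (chr3:28805498-28805527, plus strand): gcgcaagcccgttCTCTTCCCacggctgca

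*Rps27* and *Rps6* begin on the run itself, with 7 and 9 pyrimidines. The retrogene *Rps27rt* has 6 pyrimidines from its start, and its run ends in the same letters as that of its parent. The runs of the paralogs *Rps27l* and *Rpl22l1* start within 5 bases downstream of the annotated start. A C at the start followed by at least 4 bases that are C or T, read on the transcribed strand, was found in 13 of the 63 members, which is 20.6%. The same letters were found in 813 of 27025 genes of the whole table, which is 3.01%. Where the run could start up to 5 bases from the annotated site, it was found in 29 members (46.0%) and in 21.2% of all genes. None of 69 mitochondrial ribosomal protein genes and none of 25 ribosome biogenesis genes began with it. These are matches of letters at annotated sites, and start sites were not measured here.

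The files held 35051876, 86381807 and 40087244 UMIs in runs 1, 2 and 3 and 121090404 in the explant library. After the filters on quality, 824, 2194, 1673 and 5198 cells carried 1 sample barcode, with medians of 9750.0 to 14785 UMIs per cell. Pairs of libraries shared 0 to 6 cell barcodes. Cells were clustered without the members, and clusters were called basal-like or luminal-like from *Krt5*, *Krt14*, *Trp63*, *Krt8* and *Krt18*, and are written basal and luminal here. In the intact luminal sums *Krt5* was between 0 and 46.9 counts per 1000000 UMIs (CPM) and *Krt18* between 820.4 and 1942. Intact basal sums held 736 to 1411 CPM of *Krt5*. The luminal keratins did not separate the sums, since *Krt18* was between 695 and 1543 CPM in intact basal sums. *Krt8* was between 240 and 2408 CPM in luminal and between 413 and 990 CPM in basal sums. In VP RFP+ cells *Krt8* was higher in basal (544, 624 and 732 CPM) than in luminal sums (441, 457 and 464 CPM). The 6 hematopoietic markers summed to at most 296 CPM in luminal and 286 CPM in basal sums, with *Ptprc* at most 5.50 CPM. The 4 fibroblast markers, *Dcn* among them, summed to 2727 to 7543 CPM in intact basal cells, where *Col1a1* stayed at or under 4.39 CPM.

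Luminal cells led by *Sbp*, *Scgb2b27* and *Spink1*, secretory products of the VP, made up 95.4 to 98.6% of the luminal UMIs of intact VP RFP+ cells. Cells of the same cluster, with a median of 48240 UMIs, also carried barcodes of other populations. In run 2 they gave 35.4% of the luminal UMIs of intact AP RFP+ cells from 11 of 100 cells, and 54.1% of those of castrated AP RFP- cells from 10 of 48. Their barcodes go against their genes or their genes against the sort, and which holds was not tested. Shares and castration ratios are therefore given with and without them. The counts of members called in the tests were the same without them.

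Members were among the most abundant transcripts of every population. Because the 3′ method counts 1 end per transcript, CPM was compared between genes without a length correction. Over the intact populations the 73 core genes had a median of 2959 CPM, from 135 CPM (*Rpl29*) to 7615 CPM (*Rpl13*), and 69 of them exceeded 1000 CPM. Among the most abundant genes were *Rpl13* (large subunit, 7615 CPM), *Rpl23* (large subunit, 5233 CPM), *Rps24* (small subunit, 5217 CPM) and *Rpl32* (large subunit, 4641 CPM). The paralogs were far lower. *Rpl22l1* was at 627 CPM, *Rps27l* at 448 CPM, *Rpl36al* at 446 CPM and *Rpl7l1* at 62.1 CPM, while *Rps27rt* was at 66.1 CPM and *Rps19bp1* at 46.5 CPM. The testis paralogs *Rpl10l* and *Rpl39l* had no UMI in any library, and *Rpl3l*, a paralog of striated muscle, had 11 UMIs in all. The other 79 members passed the low-count filter and entered the tests.

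Members took 21.6 to 33.0% of the UMIs of basal cells in each lobe and a much smaller share in luminal cells of the VP. In AP RFP+ basal cells the share was 23.3, 23.8 and 28.9% in runs 1, 2 and 3 (25.4% ± 3.12, SD, n = 3). VP RFP+ basal cells gave 23.2, 25.1 and 31.2% (26.5% ± 4.17, SD, n = 3), and DLP RFP- basal cells gave 21.6, 23.0 and 29.4% (24.7% ± 4.13, SD, n = 3). The basal populations of the lobes overlapped, and run 3 was highest in each. AP RFP- basal cells, at 25.3% ± 3.31 (SD, n = 3), differed from AP RFP+ basal cells by less than the spread between runs.

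In luminal cells the share depended on the lobe. It was 18.5, 18.0 and 27.4% in AP RFP+ cells (21.3% ± 5.26, SD, n = 3) and 19.6, 19.4 and 25.4% in AP RFP- cells (21.5% ± 3.43, SD, n = 3). DLP RFP- luminal cells gave 16.3, 13.9 and 21.2% (17.1% ± 3.75, SD, n = 3). VP RFP+ luminal cells gave 7.73, 7.89 and 10.4% (8.68% ± 1.51, SD, n = 3) and VP RFP- luminal cells 9.17, 9.42 and 14.2% (10.9% ± 2.82, SD, n = 3). The shares of VP RFP+ luminal cells did not overlap those of any basal population or of AP or DLP RFP- luminal cells, while AP and DLP luminal shares overlapped. Within the VP, RFP+ was below RFP- luminal in each run, but the ranges overlapped. Without the cells of the *Sbp*-led cluster outside the intact VP, the luminal shares were 18.8, 22.5 and 27.4% in AP RFP+, 20.2, 23.0 and 25.8% in AP RFP- and 17.7, 17.7 and 21.7% in DLP RFP- cells. DLP RFP+ luminal cells of run 3 moved from 13.5% to 23.2%, and that cluster gave 79.8% of their UMIs.

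**Figure D1:**
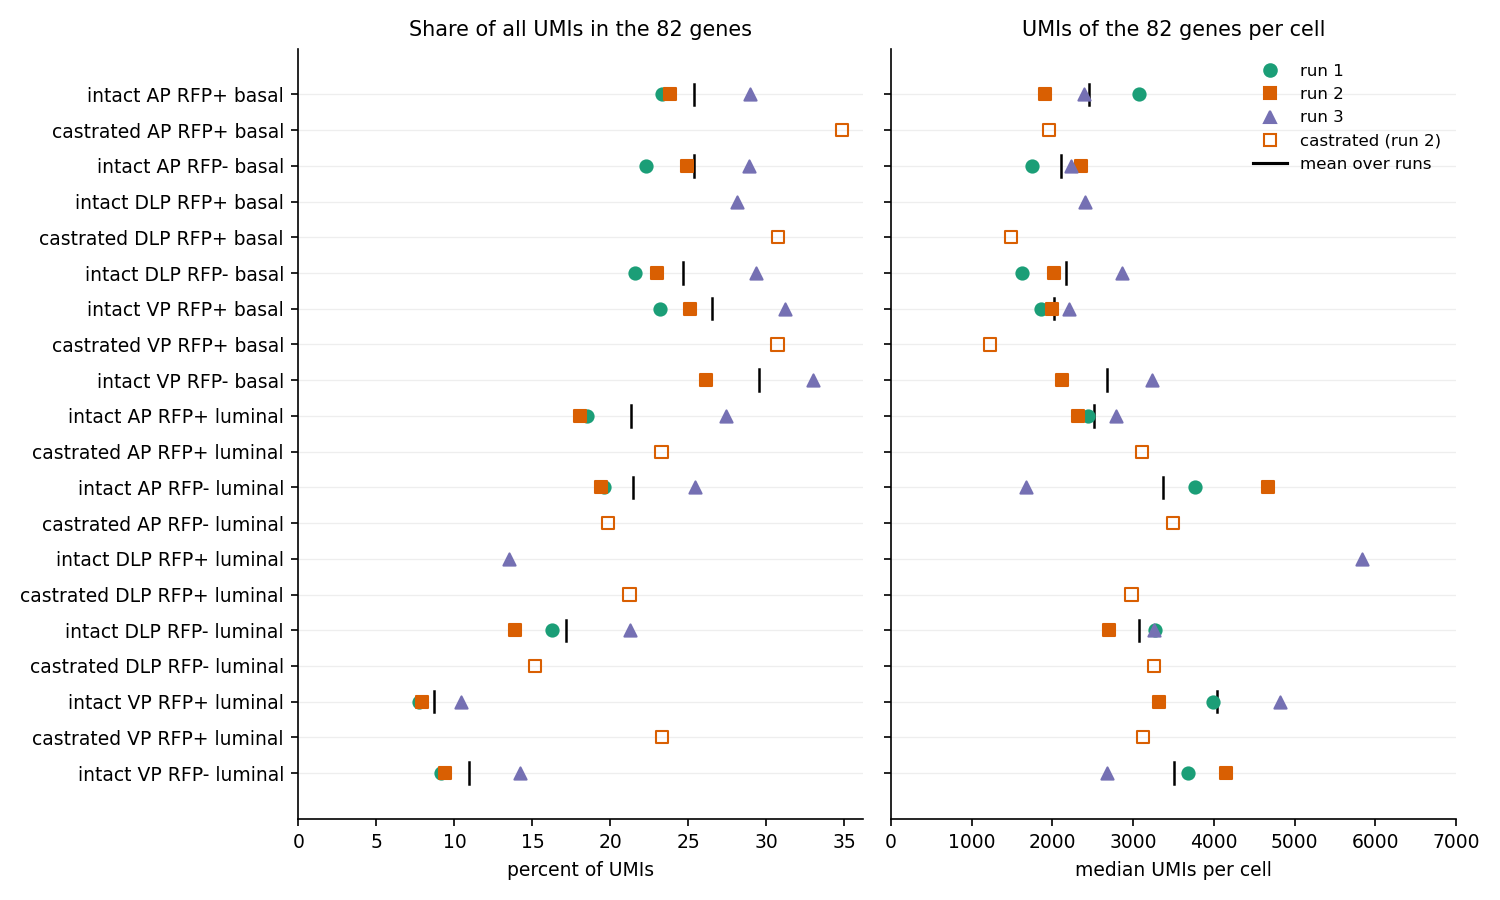
Share of all UMIs in the 82 genes (left, percent) and the median number of their UMIs per cell (right) for each adult population. Filled symbols are intact cells of runs 1, 2 and 3, open squares castrated cells of run 2 and bars the mean over runs. VP luminal cells have the lowest mean shares, with runs from 7.73 to 14.2%. Single runs of DLP luminal cells reach 13.9% (RFP-, run 2) and 13.5% (RFP+, run 3). The UMIs of these genes per VP luminal cell lie among those of the other populations or above them.

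The low share in VP RFP+ luminal cells went with more UMIs per cell and with secretory transcripts, and not with fewer UMIs of the members. VP RFP+ luminal cells held a median of 3988, 3319 and 4824 member UMIs per cell in runs 1, 2 and 3. VP RFP+ basal cells held 1853, 1995 and 2211, so the order of the compartments per cell was the reverse of that per UMI, and neither range overlapped the other. In VP RFP- cells the order differed between runs, with 4152 in luminal and 2117 in basal cells of run 2 and 2673.5 and 3235 in run 3. The 12 secretory genes listed for the prostate gave 51.6 to 52.7% of the UMIs of VP RFP+ luminal cells and at most 0.727% of those of VP RFP+ basal cells. When the 50 most abundant other genes were left out of the total, the share of members was 24.9% in VP RFP+ luminal and 33.2% in VP RFP+ basal cells, and their ranges over runs then overlapped, while luminal cells were below basal cells within each run (22.2 and 28.8% in run 1, 23.3 and 31.6% in run 2, 29.1 and 39.2% in run 3). Summed over genes, the large subunit had more UMIs than the small one in each population. The ratio was 1.22 to 1.23 in VP RFP+ basal and 1.27 to 1.33 in VP RFP+ luminal cells. The large subunit has 43 core genes and the small one 30. Per gene, the median over the intact populations was 2894 CPM for large-subunit and 3047 CPM for small-subunit core genes.

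Within the family, proportions were close to constant across populations. For each of 78 members with a mean of at least 50 CPM over the intact populations, the gene's share of all member UMIs was taken. It was compared between the 10 intact groups with replicates. The ratio of the highest to the lowest mean was 1.32 in the median and below 1.5 for 59 members. It was above 2 for 6 members and above 3 for *Rps27l* (3.28) and *Rpl36al* (3.15). Both are paralogs, and both were lowest in VP RFP+ basal cells. *Rpl10*, an X-linked gene for a large-subunit protein that joins late in assembly, ranged 2.70-fold, from 0.936% of member UMIs in VP RFP- basal to 2.53% in VP RFP+ luminal cells. *Rpl41*, which encodes a very short peptide of the large subunit, ranged 2.19-fold. *Rps19bp1*, left out of the 78 by its mean of 46.5 CPM, ranged 2.06-fold. *Rpl5* was among the steadiest, at 1.12-fold. RPL5 and RPL11 form with 5S rRNA the particle that binds MDM2, and *Rpl11* ranged 1.34-fold. *Rps6*, whose protein is phosphorylated by the S6 kinases below mTOR, ranged 1.33-fold, and *Rps19*, which is mutated in Diamond-Blackfan anemia, 1.82-fold.

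The paralogs differed between compartments relative to their parents. *Rps27l* (chr9:66946086-66949516, plus strand, GRCm38), a p53 target, and *Rps27* (chr3:90212522-90213651, minus strand) were compared as the percent of the UMIs of the pair that belong to the paralog. *Rps27l* gave 43.8, 38.5 and 24.3% of the pair in VP RFP+ luminal cells of runs 1, 2 and 3 (35.5% ± 10.1, SD, n = 3). In VP RFP+ basal cells it gave 14.3, 9.18 and 5.90% (9.79% ± 4.23, SD, n = 3). The compartments did not overlap, and run 1 was highest and run 3 lowest in both. AP luminal cells lay between them, with 15.8% in RFP+ and 21.5% in RFP- cells. Castrated VP RFP+ luminal cells of run 2 gave 19.6%, against 38.5% in the intact cells of that run.

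*Rpl36al* (chr12:69182731-69184083, minus strand), an autosomal paralog of the X-linked *Rpl36a* (chrX:134585654-134588062, plus strand), also had a larger share in luminal cells. It gave 24.7, 35.1 and 43.3% of the pair in VP RFP+ luminal cells and 10.1, 16.3 and 19.0% in VP RFP+ basal cells. Here run 3 was highest, the opposite order of runs to *Rps27l*, and the compartments did not overlap. Over the intact groups with replicates, mean shares were 26.4 to 35.3% in luminal and 15.1 to 20.9% in basal cells.

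*Rpl22l1* (chr3:28805436-28807424, plus strand) and *Rpl22* (chr4:152325742-152334071, plus strand) encode closely related RNA-binding proteins of the large subunit. *Rpl22l1* was lowest in AP RFP- luminal cells, with 22.7, 21.2 and 19.8% of the pair (21.3% ± 1.47, SD, n = 3). The other intact groups with replicates had means of 29.0 to 38.2%, and none of their runs overlapped those of AP RFP- luminal cells. Castrated AP RFP- luminal cells gave 26.7%, against 21.2% in the intact cells of run 2. Castrated VP RFP+ basal cells gave 19.9%, against 31.7% in the intact ones. In the explants *Rpl22l1* was higher than in any adult group, with 48.2% at day 0, 42.3% at day 1, 39.9% at day 3 and 41.0% at day 6.

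*Rpl7l1* (chr17:46773907-46782672, minus strand), a nucleolar relative of *Rpl7*, was rare in every group. It gave 4.00% ± 0.80 (SD, n = 3) of the pair in VP RFP+ luminal cells and 1.75% ± 0.37 (SD, n = 3) in VP RFP+ basal cells. Reads that fit more than 1 gene were not counted, so members with near-identical copies, *Rps27* and *Rps27rt* above all, are less certain.

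**Figure D2:**
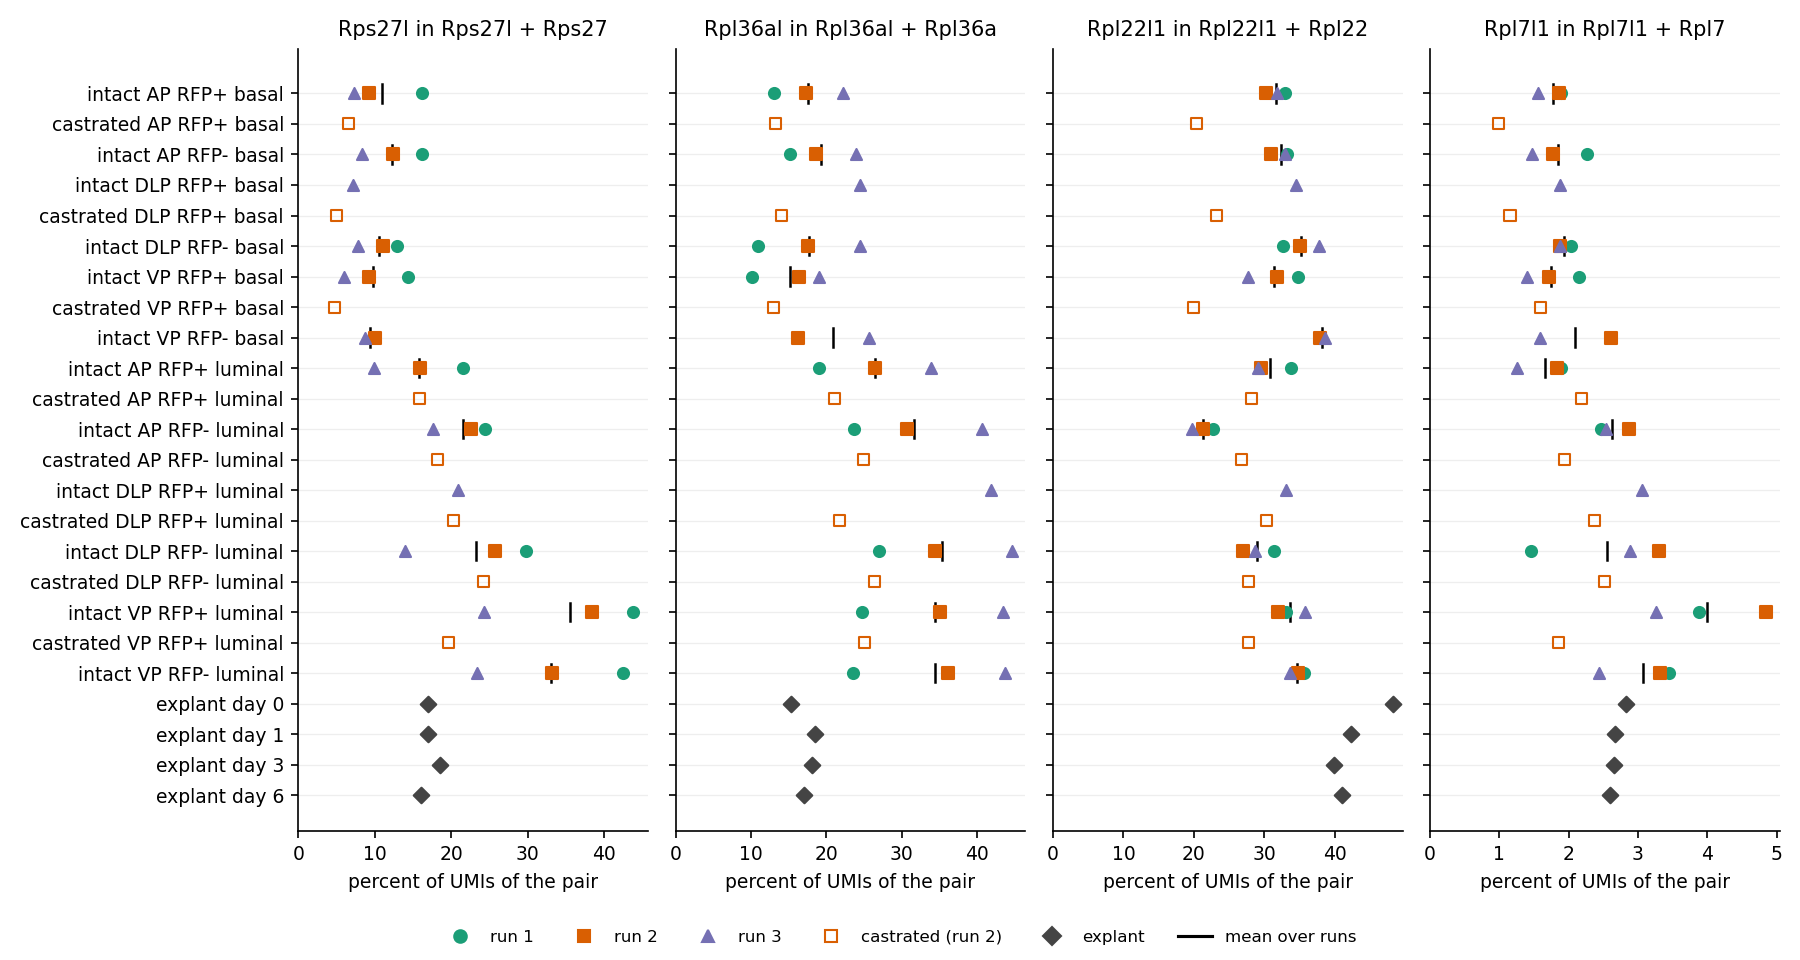
Percent of the UMIs of each pair that belong to the paralog, for *Rps27l*, *Rpl36al*, *Rpl22l1* and *Rpl7l1* (the horizontal axes differ in range). Filled symbols are intact cells of each run, open squares castrated cells of run 2, diamonds explant days and bars the mean over runs. *Rps27l* and *Rpl36al* are higher in luminal than in basal cells of the VP in every run, and *Rpl22l1* is lowest among intact groups in AP RFP- luminal cells.

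To test single genes between populations, UMIs were summed per run and population and tested across runs by edgeR's quasi-likelihood method. Values are CPM of library sizes scaled by TMM, which sets most genes to no change, and a member was called where its adjusted p was under 0.05 over all genes tested. Each run holds both populations compared, and a fit with run as a block is given where it changed a call.

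Basal and luminal cells of the intact VP differed in more members than any other pair of populations. Of 79 members tested in VP RFP+ cells, 9 were called, 7 higher and 2 lower in basal cells, against 42.8% of all 7847 genes (21% higher and 21.7% lower). The members' median log2 fold change was +0.47, that of all genes -0.00, and 73 members were above and 6 below 0. Among the higher genes, *Rpl13* and *Rpl7* belong to the large subunit and *Rps16*, *Rps19* and *Rps10* to the small subunit. *Rps27l* and *Rpl10* were the ones that fell on the TMM scale.

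*Rps16* (chr7:28350652-28353155, plus strand) had 3032, 3449 and 4751 CPM in basal and 1616, 1584 and 2095 CPM in luminal sums. It was higher in each run without overlap, by a log2 fold change of 1.09 ± 0.27 (SE, edgeR's adjusted p = 0.0074). *Rpl13* (chr8:123102350-123105244, plus strand), the most abundant member, had 7707, 7473 and 8893 CPM in basal and 4283, 3437 and 3922 CPM in luminal sums, a log2 fold change of 1.05 ± 0.26 (SE, edgeR's adjusted p = 0.0077). The compartments did not overlap for it either. The log2 fold changes of *Rps19*, *Rpl7* and *Rps10* were 0.99, 0.95 and 0.66.

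*Rps27l* had 187, 268 and 314 CPM in basal and 465, 730 and 601 CPM in luminal sums. It was lower in basal cells in each run without overlap, with a log2 fold change of -1.22 ± 0.26 (SE, edgeR's adjusted p = 0.003) on the TMM scale. Across 14 other settings its log2 fold change lay between -1.38 and -0.06, and in 2 of them it did not pass. *Rpl10* (chrX:74270812-74273135, plus strand) had 1916, 1540 and 1982 CPM in basal and 3533, 2711 and 3584 CPM in luminal sums. Its log2 fold change was -0.85 ± 0.25 (SE, edgeR's adjusted p = 0.017) on the TMM scale, and +0.33 when library sizes were all UMIs.

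Members whose level differed most between runs did not pass in the fit without the block, in spite of large differences. The SE of that fit includes the spread between runs that both compartments share. *Rps27* had 1119, 2648 and 5018 CPM in basal and 597, 1167 and 1869 CPM in luminal sums, with a log2 fold change of 1.27 ± 0.52 (SE, edgeR's adjusted p = 0.069). *Rpl36al* had 55.2, 178 and 377 CPM in basal and 129, 361 and 844 CPM in luminal sums, with a log2 fold change of -1.13 ± 0.66 (SE, edgeR's adjusted p = 0.195). Both genes were lowest in run 1 and highest in run 3 in either compartment, as was *Rpl41* (1146, 2502 and 5096 CPM in basal sums). The levels of these short messages thus differed between libraries by more than between compartments.

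In the fit with run as a block, 58 members passed in the VP, 54 higher and 4 lower (*Rpl10*, *Rpl41*, *Rps27l* and *Rpl36al*), where 53.4% of all genes did. The calls rested on run 2, since without it none of the 79 members passed by edgeR (7 had an unadjusted p under 0.05). Without run 1 11 passed and without run 3 7 passed. With library sizes as all UMIs, 75 members were higher and the median log2 ratio was 1.59 for members and 1.10 for all genes. The shares of all genes called without a run or with all UMIs are not reported here.

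In AP RFP+ cells the same comparison called none of 79 members by edgeR, against 29.8% of all 9406 genes. Of the members, 72 were above 0 in basal cells, with a median log2 fold change of +0.26 and one of 0.00 for all genes. Unadjusted p was under 0.05 for *Rpl13*, *Rpl10*, *Rps19bp1* and *Rpl7l1*, and DESeq2 called *Rpl13* and *Rpl10*. *Rpl13* had 11003, 10188 and 11875 CPM in basal and 6372, 6371 and 7439 CPM in luminal sums. The runs did not overlap, and the log2 fold change was 0.71 ± 0.25 (SE, edgeR's adjusted p = 0.058). *Rpl10* had 3224, 2601 and 3324 CPM in basal and 4564, 3864 and 5163 CPM in luminal sums, a log2 fold change of -0.57 ± 0.24 (SE, edgeR's adjusted p = 0.11). *Rpl10* was thus lower in basal cells of either lobe on this scale, and without the block edgeR called it in the VP and not in the AP. With run as a block 41 members passed, 37 higher and 4 lower (*Rpl10*, *Rpl41*, *Rpl36al* and *Rps19bp1*), against 43% of all genes.

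**Figure D3:**
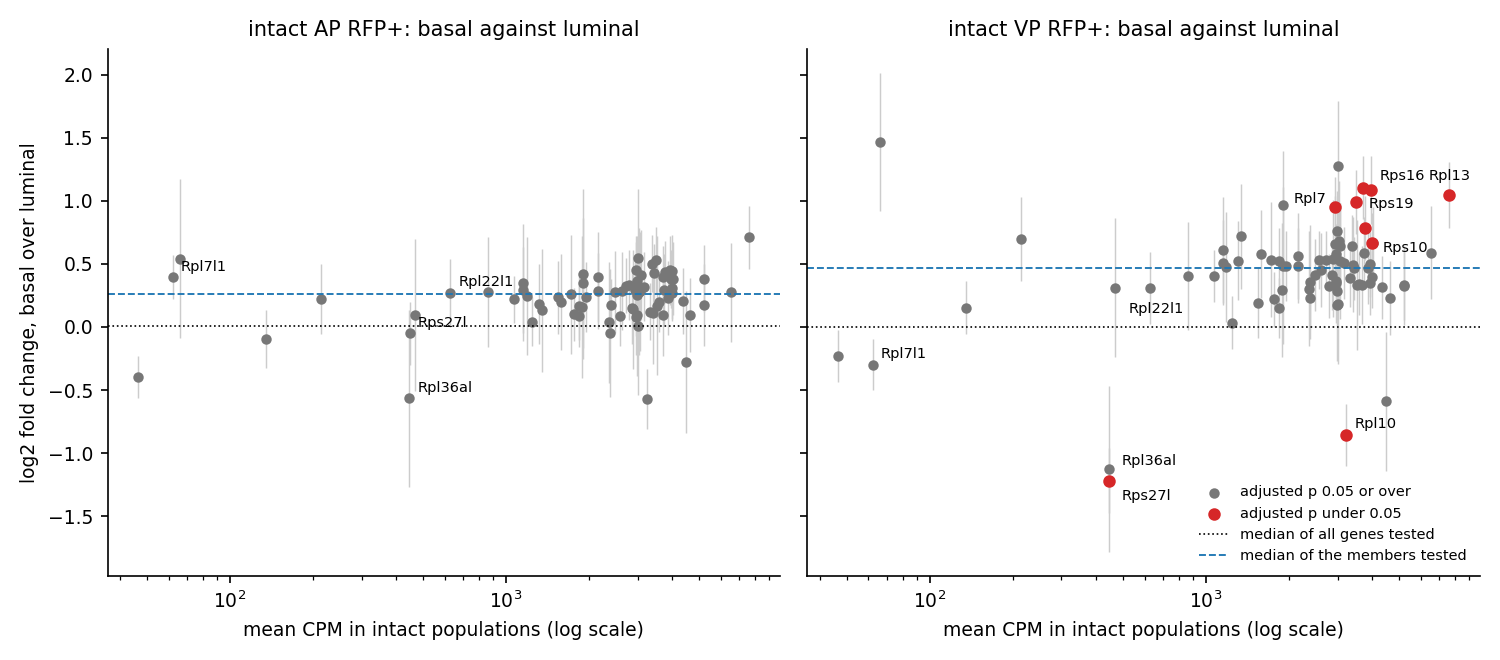
Log2 fold change of each member tested, basal over luminal, against its mean CPM over the intact populations (log scale), in AP RFP+ (left) and VP RFP+ cells (right). Each point is a gene with its SE, red where the adjusted p was under 0.05, and lines mark the medians of members and of all genes tested. The members' median is +0.26 in the AP and +0.47 in the VP. *Rps27l*, *Rpl36al* and *Rpl10* lie below 0 in both on this TMM scale. With library sizes as all UMIs *Rpl10* in the VP is at +0.33, and *Rps27l* there reached -0.06 in its weakest setting.

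Other genes of protein synthesis were counted beside the members in the same fits, where 15% of all genes were higher and 14.8% lower in AP and 21% and 21.7% in VP basal cells. Of 30 genes of ribosome biogenesis, 29 were tested in AP RFP+ cells and 11 were higher and none lower in basal cells, among them the nucleolar proteins *Fbl* (log2 fold change 0.80) and *Ncl* (0.91) and the transcription factor *Myc* (1.73). In VP RFP+ cells 5 of 28 were higher, including *Ncl* (1.21) and *Myc* (1.87), and 3 were lower (*Polr1d* -1.03, *Nhp2* -1.03 and *Nop10* -0.95). Of 34 translation factors 2 were higher in each lobe, *Eif4a1* and *Eif6* in the AP and *Eif4a1* and *Tpt1* in the VP. Of the regulators of the TOR pathway, 3 of 15 tested in the AP and 3 of 12 in the VP fell in basal cells, near the shares of all genes. *Eif4ebp2* and *Deptor* fell in both, *Tsc2* in the AP and *Eif4ebp1* in the VP (log2 fold change -2.26), while *Rheb* rose in the AP. Of the mitochondrial ribosomal protein genes, 1 of 75 tested was higher and 28 were lower in basal cells of the VP, with a median log2 fold change of -0.46. In the AP 2 of 76 were higher and 4 lower (median -0.14). In the VP their median and that of the members (+0.47) thus had opposite signs. Of 7 cytosolic ribosomal genes named outside the rule, *Rack1* was higher in VP basal cells (0.64) and none passed in the AP. Secretory genes fell in basal cells in 7 of 9 tested in the VP and 7 of 11 in the AP. Proliferation genes were higher in 3 and lower in 1 of 7 tested in the VP, and higher in 2 of 8 in the AP.

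RFP+ and RFP- luminal cells of the AP were compared to see how the members differ between cells with and without *Runx1* promoter activity. The cells also lay in different clusters, so the sort and the cluster cannot be told apart. Of the RFP+ cells 183 of 211, 81 of 100 and 130 of 146 in runs 1, 2 and 3 were in a cluster led by *Psca* and *Tspan8*, and of the RFP- cells 68 of 77, 119 of 144 and 42 of 45 in one led by *9530053A07Rik* and *Tgm4*. None of 79 members was called by edgeR or by DESeq2, against 25.3% of all 8952 genes, and *Rps19bp1* alone had an unadjusted p under 0.05. The members' median log2 fold change was -0.15, that of all genes -0.01, and 63 of 79 members were lower in RFP+ cells. The members' median was -0.05 without run 1 and -0.28 without run 3. With CPM of all UMIs the medians were -0.02 and +0.13. *Rps19bp1* had 51.5, 53.8 and 58.5 CPM in RFP+ and 61.7, 78.2 and 73.9 CPM in RFP- sums, with a log2 fold change of -0.39 ± 0.17 (SE, edgeR's adjusted p = 0.13). *Rpl22l1* had 423, 572 and 753 CPM in RFP+ and 330, 426 and 463 CPM in RFP- sums. It was higher in each run, and the log2 fold change was 0.52 ± 0.26 (SE, edgeR's adjusted p = 0.18). *Rpl7* had 2980, 2944 and 3662 CPM in RFP+ and 2434, 2168 and 2309 CPM in RFP- sums, without overlap and with a log2 fold change of 0.47 ± 0.22 (SE, edgeR's adjusted p = 0.16).

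A block for run let 15 members pass in the AP, *Rpl7* and *Rpl22l1* higher and 13 lower in RFP+ cells, against 35.3% of all genes. The lower ones had *Rps28* (-0.71), *Rpl36* (-0.60) and *Rps27l* (-0.55) as those with the largest log2 fold changes. Of the other lists, 13 of 77 mitochondrial ribosomal protein genes and 3 of 34 translation factors (*Eif3b*, *Eif3g* and *Pabpc1*) were lower in RFP+ cells in the fit without the block, where 11.9% of all genes were. Of 15 regulators of the TOR pathway tested, 1 was lower, a smaller part than among all genes. It was *Ddit4*, an inhibitor of mTOR signaling, with a log2 fold change of -1.75.

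In the VP, none of 79 members was called between RFP+ and RFP- luminal cells by edgeR or DESeq2, none had an unadjusted p under 0.05, and 0.327% of all 7963 genes passed. All but *Rpl7l1* had a log2 fold change below 0, and 74 were lower in RFP+ cells in each run, with a median log2 fold change of -0.37 against -0.00 for all genes. This median was -0.17 without run 3 and -0.53 with at least 20 cells per sum. The share of all genes that were lower in each run was not counted. *Rps27a*, which encodes a fusion of ubiquitin and a small-subunit protein, had the smallest adjusted p among them. It had 1704, 1696 and 2107 CPM in RFP+ and 2327, 1931 and 3323 CPM in RFP- sums, with overlap and a log2 fold change of -0.46 ± 0.28 (SE, edgeR's adjusted p = 0.91). Blocking by run, no member passed, where 1.83% of all genes did. An unadjusted p under 0.05 was found in that fit for 40 members, and the share of all genes at this looser limit was not counted. VP RFP- luminal cells numbered 10, 66 and 46 in the 3 runs.

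Whether the RFP difference itself differed between AP and VP luminal cells was tested with the 4 populations in 1 fit. None of 79 members was called by edgeR or DESeq2, against 5.99% of all 9716 genes, and *Rpl7* alone had an unadjusted p under 0.05. Its difference of log2 fold changes was 0.73 ± 0.33 (SE, edgeR's adjusted p = 0.23), and that of *Rpl22l1* 0.90 ± 0.49 (SE, edgeR's adjusted p = 0.33). Blocking by run, both passed, *Rpl7* with 0.71 ± 0.21 (SE, adjusted p = 0.038) and *Rpl22l1* with 0.86 ± 0.22 (SE, adjusted p = 0.02), where 13.6% of all genes did.

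Between lobes, no member passed on the TMM scale in the fit without the block. In RFP- luminal cells of AP against VP, none of 79 members was called by edgeR or DESeq2, against 15.6% of all 7354 genes. On CPM of all UMIs the median member was higher in the AP by a log2 ratio of 0.99, but so was the median of all genes, by 0.96. On the TMM scale the medians were -0.04 and +0.02, and the members' median changed sign with the runs used, from -0.17 without run 2 to +0.17 without run 3. *Rpl22l1* alone had an unadjusted p under 0.05, with 220, 285 and 325 CPM in AP and 360, 411 and 788 CPM in VP sums. It was lower in the AP in each run without overlap, by a log2 fold change of -0.91 ± 0.32 (SE, edgeR's adjusted p = 0.087), and was called with run as a block (-0.84 ± 0.22, SE, adjusted p = 0.022), where 18.8% of all genes were. With library sizes as all UMIs, which keep the shift of all genes, 58 members were called and *Rpl22l1* was at +0.12. The share of all genes called in that setting is not reported here. These CPM values share the RFP- sums with the comparisons of RFP+ and RFP- cells.

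AP and DLP were compared in RFP- luminal cells as well. None of 79 members was called by edgeR or DESeq2 and none had an unadjusted p under 0.05, where 0.746% of all 8041 genes passed. In the AP, 76 members were higher, 70 of them in each run, with a median log2 fold change of +0.23 against -0.01 for all genes. The share of all genes that were higher in each run was not counted. With run as a block 25 members passed, all higher in the AP, against 2.81% of all genes in that direction.

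Basal cells were compared between lobes and by RFP. Between AP and VP basal RFP+ cells none of 79 members was called by edgeR or DESeq2 and none had an unadjusted p under 0.05, where 0.456% of all 7453 genes passed. The members' median log2 fold change was -0.13 (-0.06 without run 3), and 72 were below 0. A single member (1 of 79) passed when run was a block, against 6.06% of all genes. Between RFP+ and RFP- basal cells of the AP no gene of 8293 was called, so the share of all genes called was 0, and none of 79 members had an unadjusted p under 0.05. Member log2 fold changes there lay between -0.24 (*Rps27l*) and +0.04 (*Rpl8*).

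Castrated and intact cells were compared in run 2, with 1 pool of each, so no test was possible and intervals cover counting error only. A member was counted as moved where its CPM differed by more than 1.5-fold with at least 50 CPM in either group. The largest difference was in VP RFP+ luminal cells, where the share of members was 23.3% after castration and 7.89% in intact cells. The log2 ratio was 1.56 (95% interval 1.56 to 1.57), and 77 of 78 members were higher past 1.5-fold. Of all 2316 genes 81.1% were, with a median log2 ratio of 1.04. The secretory genes gave 52.3% of UMIs in intact and 10.9% in castrated cells. Relative to that median 32 members were higher, against 16.2% of all genes.

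Member by member, *Rpl36* had the highest log2 ratio in these cells, 2.00 (1083 to 4341 CPM), followed by *Rps27* from 764 to 2924 CPM (1.94) and *Rpl35a* from 958 to 3549 CPM (1.89). *Rps27l* had the lowest, from 477 to 714 CPM (0.58), followed by *Rpl36al* from 237 to 463 CPM (0.97). The paralogs that were high in intact VP luminal cells were thus the ones with the smallest ratios. Median member UMIs per cell were 3319 in intact and 3124 in castrated cells, while the median of all UMIs per cell was 46309 and 13153.5. Different clusters hold these cells: the *Sbp*-led cluster had 171 of 182 intact cells, and a cluster led by *Ang4* and holding *Crym* had 105 of 126 castrated cells. The hematopoietic markers summed to 10.4 CPM in intact and 143 CPM in castrated cells, and their part in the result was not tested.

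AP RFP+ basal cells had the highest share of any population after castration, 34.9% against 23.8% in intact cells. The log2 ratio was 0.55 (95% interval 0.54 to 0.56). Different clusters hold these cells too, since 106 of 150 castrated cells lay in a basal cluster led by *Sfn* that had 25 of 112 intact cells, and 67 intact and 4 castrated cells lay in one led by *Krt14*. Of 79 members 29 were higher past 1.5-fold and none lower, against 5.25% and 26.4% of all 2783 genes, and relative to the median of all genes (-0.29) 67 were higher, against 13.2%. *Rpl12* went from 2601 to 4803 CPM (log2 ratio 0.88) and *Rps19* from 4684 to 8649 CPM (0.88). The paralogs stood apart again, with *Rpl22l1* at 678 and 617 CPM (-0.13), *Rpl7l1* at 70.8 and 56.1 CPM (-0.33) and *Rps27l* at 406 and 429 CPM (0.08) in intact and castrated cells. Median UMIs per cell were 8659.5 in intact and 5369.5 in castrated cells, and among cells with at most 7500 UMIs the log2 ratio was 0.61. Median member UMIs per cell were close, 1910 in intact and 1952.5 in castrated cells.

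VP RFP+ basal cells went from 25.1 to 30.7% (log2 ratio 0.29). Per cell, their median member UMIs were lower after castration, 1222.5 against 1995 in intact cells. Their median of all UMIs per cell was 3633 in castrated and 7930.5 in intact cells. The *Sfn*-led cluster had 63 of 80 castrated and 12 of 74 intact cells, and one led by *Apoe* and *Dcn* had 13 and 45. Here 4 members were higher and 1 lower past 1.5-fold, against 12.5% and 26.8% of all genes. The highest were *Rpl35a* (3416 to 5819 CPM, log2 ratio 0.77), *Rps21* (2855 to 4663 CPM, 0.71) and *Rps19* (5252 to 8179 CPM, 0.64). *Rpl22l1* went from 796 to 530 CPM (-0.59) and *Rps27l* from 398 to 266 CPM (-0.58).

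The luminal populations of AP and DLP depended on the *Sbp*-led cells. AP RFP+ luminal cells had 23.3% after castration and 18.0% in intact cells (log2 ratio 0.37), with 6 of 79 members higher against 23.1% of all genes. Without those cells the values were 26.0 and 22.5% (0.21), with 1 member higher against 16.1% of all genes. *Rpl12* was the highest in the full pools, from 1977 to 3505 CPM (0.83), and *Rps3a1* the lowest, from 3258 to 2902 CPM (-0.17). AP RFP- luminal cells had 19.9 and 19.4% (0.04), with no member higher past 1.5-fold against 11.8% of all genes. Without the cells of that cluster they had 31.5 and 23.0% (0.46), with 19 members higher against 24% of all genes.

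DLP RFP- luminal cells had 15.1 and 13.9% (0.13) with no member higher past 1.5-fold, against 4.54% of all genes. Without those cells they had 31.8 and 17.7% (0.84), and 70 of 78 members were higher against 28.5% of all genes, but these are 15 castrated cells. The castrated share exceeded the intact one in each of the 6 populations in either setting, by log2 ratios that the choice of cells moved from 0.04 to 0.46 in AP RFP- and from 0.13 to 0.84 in DLP RFP- cells. Of the castrated AP luminal cells most lay in a cluster led by *Clu* and *Krt19*, while intact AP RFP+ cells lay in one led by *Psca* and *Tspan8* and intact AP RFP- cells in one led by *9530053A07Rik* and *Tgm4*.

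**Figure D4:**
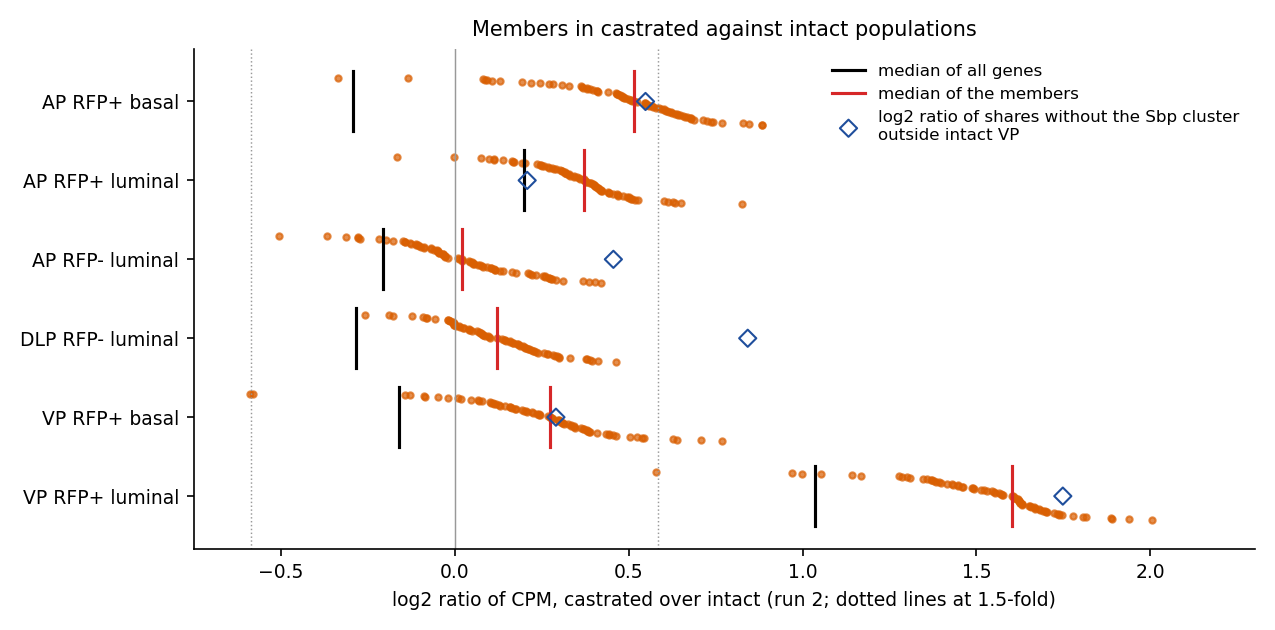
Log2 ratio of CPM, castrated over intact cells of run 2, for each member (points) in 6 populations, with the medians of members and of all genes as bars and dotted lines at 1.5-fold. Open diamonds are the log2 ratio of the summed shares without the cells of the *Sbp*-led cluster outside the intact VP. In the VP only castrated cells were left out. In VP RFP+ luminal cells nearly all members lie to the right of 1.5-fold, as does the median of all genes (1.04), while in AP RFP+ basal cells the members' median is 0.52 and that of all genes -0.29.

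In the explants the share of members was steady. All assigned cells had 26.0% at day 0 (701 cells), 26.8% at day 1 (802 cells), 28.9% at day 3 (1225 cells) and 28.8% at day 6 (2470 cells). Each day is 1 pool, and the log2 ratio of day 6 to day 0 was 0.14, with no test. Prostatic epithelium-like cells, which were 67.2, 74.7, 85.6 and 82.8% of the cells, had 27.2, 27.9, 29.4 and 29.7%. No member moved past 1.5-fold between any pair of days compared, where 19.2% of all 3158 genes did between days 0 and 6, 7.77% between days 0 and 1, 4.91% between days 1 and 3 and 3.64% between days 3 and 6.

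From day 0 to day 6, *Rpl13* went from 8550 to 11225 CPM (log2 ratio 0.39) and *Rps6* from 2098 to 2656 CPM (0.34), the largest ratios along with *Rpl36al* (252 to 318 CPM, 0.34). *Rpl22l1* went from 1291 to 1107 CPM (-0.22), the smallest ratio, and *Rps12* from 4983 to 4554 CPM (-0.13). At day 6 the member shares of clusters ranged from 18.9% in a cluster led by *Acta2* and *Col3a1* through 21.5% in a cluster led by *Crip1*, *Sct* and *Clu*, to 28.2 to 30.8% in the prostatic epithelium-like clusters. Of the 233 cells of the *Crip1*-led cluster 226 came from day 6. A cluster led by *Ero1l* and *Slc2a1*, genes of the hypoxic response, had 31.2% and 126 of its 133 cells at day 1. It was counted as prostatic epithelium-like and gave 126 of the 599 such cells of day 1. The paper kept its own cluster of hypoxia and stress apart from the prostatic cells. The share of day 1 without this cluster is not reported here.

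**Figure D5:**
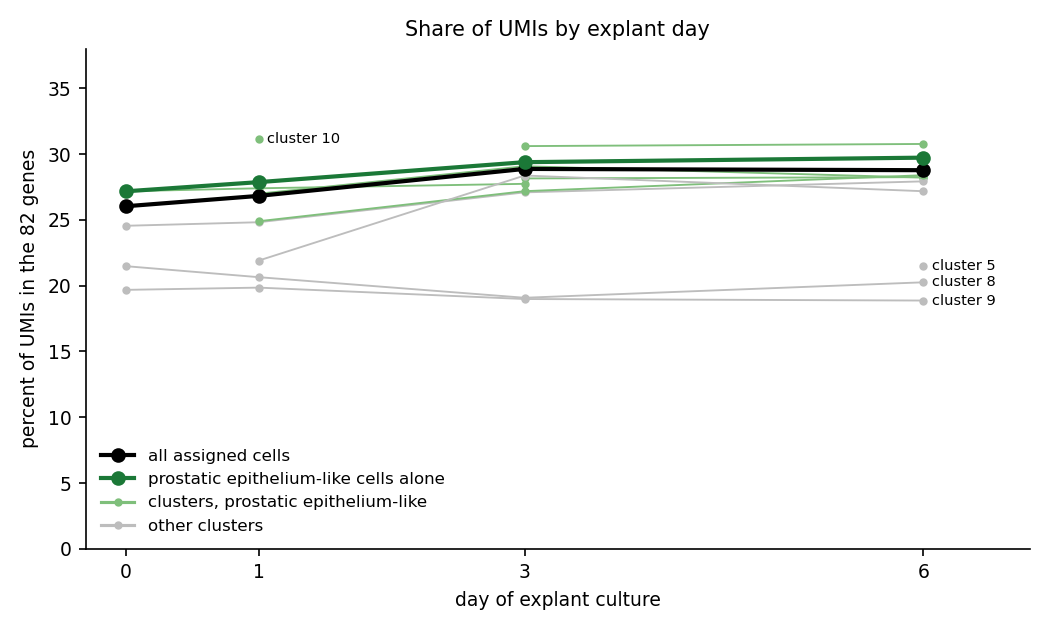
Share of UMIs in the 82 genes by day of explant culture, for all assigned cells (black), prostatic epithelium-like cells (dark green) and single clusters with at least 20 cells on that day (light green where prostatic epithelium-like, gray otherwise). The share of all cells lies between 26.0 and 28.9%, and clusters 8 and 9 lie between 18.9 and 21.5% on each day.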

How the data were processed

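The authors aligned reads to the mouse genome mm10 and counted UMIs per gene and cell with Cell Ranger 3.1.0, and counted the MULTI-seq sample barcodes of each cell. Their notes also name Seurat 3.1.5. The deposited values used here are these raw counts, before normalization. Cells were assigned to populations from the deposited barcode counts with the study's thresholds. Members and gene lists were chosen with earlier results of these data known.

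Adult cells with 750 to 7500 genes and at most 10% mitochondrial UMIs were kept, and explant cells with at least 1000 genes and at most 7.5%. Only cells with a single sample barcode were kept, and no doublet caller was run. Doublets within a population, and in runs 1 and 2 those with intact DLP RFP+ cells, whose barcode failed, were thus kept. Adult runs were integrated and clustered with Seurat 5.3.0 on 3000 variable genes without the members (50 components, 20 neighbors, resolution 0.4). Compartments were named from marker CPM. Cells outside them were 19.9, 19.7 and 7.11% of runs 1, 2 and 3.

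UMIs were summed per run, population and compartment with at least 10 cells. edgeR 4.0.16 was run with TMM, filterByExpr, the quasi-likelihood test and Benjamini-Hochberg adjustment over all genes, and DESeq2 1.42.0 as an alternative (R 4.3.3). Populations compared share a run, and 23 of 24 correlations of their deviations within a run were over 0.1 (0.034 to 0.645), so run was used as a block in a second fit. Whether pools of different runs came from separate mice is known only from the run labels, so p-values measure the spread between runs. In a simulation of the AP luminal comparison with 8952 genes and 200 changed, edgeR recovered 90% of 4-fold and 32% of 2-fold changes. With 1 pool per group, exact 95% intervals cover counting error only.

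Genes named in the text are the paralogs and their parents, *Rps6*, *Rpl5*, *Rpl11* and *Rps19*, the 5 most abundant members and, in each comparison, the 3 largest and 3 smallest log2 fold changes among those called, or among all members over 50 CPM where no test was possible. Members with an unadjusted p under 0.05, the smallest adjusted p or a call that changed with the block, and the genes that show the difference between runs, were named after their values were seen. Single values of some members that this rule names are not reported here. Alternatives were another tool and scaling, filters, left-out runs, cell sets and other denominators.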

Additional observations from a re-analysis of the deposited data

Results flagged for a closer look

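A few members moved in opposite directions in AP and VP in every run. In luminal cells, *Rpl22l1*, *Rpl7* and *Rps19* were higher in RFP+ than RFP- cells of the AP in each run and lower in each run of the VP, and the log2 fold changes differed between the lobes by 0.91, 0.74 and 0.67. In all, 7 members did so, and how many of all genes did was not counted. Only 7 of 79 members were higher in each run of the AP, while 74 were lower in each run of the VP. The test of the difference itself did not pass for any of them by edgeR without the block, and passed for *Rpl7* and *Rpl22l1* with run as a block. *Rpl7l1* was higher in basal than luminal RFP+ cells of the AP in each run and lower in each run of the VP. Its log2 fold changes differed by 0.69, and this difference was not tested.

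Rows marked as processed pseudogenes of ribosomal protein genes, which are not part of the set, held UMIs in every library. Their share of UMIs was lowest in run 1 (0.00654%), then 0.00762% for run 2 and 0.0115% for run 3, and highest for the explants (0.0134%). A count of 0 would allow at most 1.89e-05, 7.67e-06, 1.12e-05 and 3.33e-06%. The row with most UMIs was *Rpl10-ps3* in the adult runs and *Rpl36a-ps1* in the explants. Whether these UMIs come from the parent genes was not tested.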

How the results depend on the processing

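Of 131 counts of members called under other settings, 115 stayed within 1.5 times the count reported. The count reported was 0 in every comparison but VP basal against luminal cells, so most of these are counts of 0 that stayed 0. Of 97 intact shares 87 stayed within their spread between runs. Of 170 values of named members 150 kept direction and side of the threshold. With run as a block, members called were 58 and 41 between basal and luminal cells of VP and AP, 15 for RFP in AP luminal cells, 25, 1 and 1 for AP against DLP luminal, AP against VP luminal and AP against VP basal cells, and 2 for the difference of RFP effects. Between VP basal and luminal cells, DESeq2 called 14 members, library sizes as all UMIs 75, sizes without the members and the 50 top genes 19, and leaving out 1 run 0 to 11. For AP basal against luminal DESeq2 called 2 and a fit of all populations together 3. For AP against VP luminal RFP- cells, at least 20 cells per sum or no low-count filter each called 1, and sizes as all UMIs 58. For settings other than the block, the share of all genes called is not reported here. Their counts are therefore not read as results about the members. *Rpl10* reversed to 0.33 (VP basal against luminal) and *Rpl22l1* to 0.12 (AP against VP luminal) with sizes as all UMIs, which keep the shift of all genes. The 7500-UMI limit on cells could not be fitted for 4 comparisons, where too few sums remained.

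For castration, log2 ratios of shares and counts of members moved with the cells and the denominator. Without the *Sbp*-led cells outside the intact VP they were 0.21 and 1 member in AP RFP+ luminal, 0.46 and 19 in AP RFP- luminal, 0.84 and 70 in DLP RFP- luminal and 1.75 in VP RFP+ luminal cells. In the VP this left out 8 of 126 castrated cells and kept the 171 of 182 intact cells of that cluster, so 1.75 compares unlike sets of cells. Without the 5% of cells with most UMIs the ratios and counts were 0.28 and 2, 0.19 and 1, 0.54 and 29, and 1.44 in the same order. Without the 50 most abundant other genes they were 0.18 and 1, 0.19, 0.35 and 6, and 0.46 and 18, and 0.50 in AP RFP+ basal and 0.28 in VP RFP+ basal cells. The mean of per-cell shares gave 0.60 and 0.31 in AP RFP+ and VP RFP+ basal and 0.29, 0.37, 0.60 and 1.42 in the luminal populations. Clusters made with the members gave 0.54 and 0.30 in these basal and 0.39 in AP RFP+ luminal cells. A limit of 7500 UMIs gave 0.61 in AP RFP+ basal and 0.32 in AP RFP+ luminal cells, and leaving out mitochondrial UMIs 0.38 in AP RFP+ and 1.59 in VP RFP+ luminal cells. At 2-fold, 0 members passed in AP RFP+ basal, AP RFP+ luminal and VP RFP+ basal cells. Relative to the median of all genes, 67, 1, 3, 7, 13 and 32 members were higher or lower in AP RFP+ basal, AP RFP+, AP RFP- and DLP RFP- luminal, VP RFP+ basal and VP RFP+ luminal cells.

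In the explants the log2 ratio of day 6 to day 0 was 0.16 as the mean of per-cell shares, 0.13 in prostatic epithelium-like cells, 0.15 without mitochondrial UMIs, 0.16 without the 50 top genes and 0.19 without the 5% of cells with most UMIs. That of day 6 to day 3, -0.0048, turned to 0.017 in prostatic epithelium-like cells, 0.0027 without mitochondrial UMIs and 0.0074 without the 50 top genes.

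Without the 50 top genes intact shares were 31.5 and 28.2% in AP RFP+ basal and luminal, 31.6 and 29.8% in AP RFP-, 30.7 and 26.1% in DLP RFP-, 33.2 and 24.9% in VP RFP+ and 36.6 and 28.3% in VP RFP- cells. With 2 or 3 runs, short messages whose level differs between runs have wide errors, and castrated pools have no replicate.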

Other observations

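Populations with 1 pool and no counterpart in the same run were left out of the comparisons. Castrated DLP RFP+ cells of run 2 had member shares of 30.8% in basal and 21.2% in luminal cells, and intact DLP RFP+ basal cells of run 3 had 28.1%. In castrated DLP RFP+ basal cells *Rps27l* gave 4.94% of its pair with *Rps27*, and in castrated DLP RFP+ luminal cells 20.2%. In the explants *Rps27l* gave 17.0, 16.9, 18.6 and 16.1% of its pair at days 0, 1, 3 and 6, and *Rpl36al* gave 15.3, 18.4, 18.1 and 17.1% of its pair.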
